A study of Mus musculus with 32 samples.

Results

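Described here are 39 mouse genes that encode secreted neuropeptides, synapse-organising cerebellins and granins, of 55401 gene identifiers measured in the hypothalamus. They were selected by gene symbol, matched to Ensembl identifiers in a GRCm38 annotation, with the classical feeding, pituitary and reproductive hormones left out. The selection rule used no expression value, but earlier results of these data were known when it was made. All 39 symbols were found. The study asked how loss of the receptor gene Gpr101 and a fat-rich diet alter hypothalamic gene expression. RNA was sequenced from 4 groups of male C57BL/6NTac mice. KO_HFD were 9 hemizygous Gpr101 knockouts that ate a diet with 60% of its energy from fat from the age of 7 weeks, and KO_CD were 8 such knockouts on control diet. WT_HFD were 8 wild-type littermates on the same fat-rich diet, and WT_CD were 7 wild-type littermates on control diet. How the knockout allele was made is not given in the sources used here, and each library is labelled as a separate mouse. Mice were 149 or 150 days old when killed, and age followed diet, with 1 of 9 KO_HFD, 5 of 8 KO_CD, 1 of 8 WT_HFD and 6 of 7 WT_CD mice at 149 days.

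Neuropeptides are cut from larger precursor proteins inside dense core vesicles and act on G protein-coupled receptors of other cells after calcium-triggered release. Granins are acidic proteins of the same vesicles that help to pack the cargo, and several of them are themselves cut into signalling peptides. In the hypothalamus, small groups of neurons each make their own mix of peptides, among them the suprachiasmatic nucleus, which keeps daily time, and the arcuate nucleus, which senses nutrients and hormones. The product of Gpr101, a gene on the X chromosome, is a G protein-coupled receptor without an agreed natural ligand, and its signalling through Gs raises cAMP.

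Libraries held 25.3 M to 34.2 M reads on genes, so that 1 read was worth 0.0361 CPM (counts scaled to 1 M reads) at the median depth. Gpr101 itself had 1 read in the 9 KO_HFD libraries together and 0 reads in the 8 KO_CD libraries, against 2471 to 3472 reads per WT_HFD library and 2605 to 3145 reads per WT_CD library. The 14 hypothalamic marker genes examined, such as Sim1, Otp, Pomc and Hcrt, were above 0 in every library. Markers of thalamus, striatum, meninges and blood were also present in every library, the pituitary hormone genes Gh and Prl were at 0 in 7 and 16 libraries, and the arcuate marker Kiss1 was listed at 0 in all 32.

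Granin genes were the most abundant of the 39. Levels were compared between genes as reads per kb of annotated exon and per 1 M reads on genes (RPKM). Pcsk1n, encoding proSAAS, an inhibitor of the convertase that cuts peptide precursors, had the highest level at 452 ± 23.9 RPKM (SD, n = 32). It was followed by Scg2, encoding secretogranin II, the precursor of secretoneurin, at 412 ± 20.4 RPKM. The next were Scg5 at 144 ± 5.96 RPKM, encoding a chaperone of the second precursor convertase, and Chgb at 133 ± 6.85 RPKM, encoding chromogranin B. Vgf had 123 ± 10.3 RPKM and Chga, encoding chromogranin A, 113 ± 10.8 RPKM. Over libraries the range of Pcsk1n overlapped that of Scg2, and the ranges of Scg5, Chgb, Vgf and Chga overlapped one another. Pcsk1n shares 135 exon bases with the opposite-strand gene Eras. Penk shares 233 with A830012C17Rik and Nmu 55 with 4930432L08Rik, also on the opposite strand. Npff shares 327 with Gm28047 on its own strand. Reads could have been lost or split at these places, the strand setting of the counting being unknown. The 6 genes from Pcsk1n to Chga held 77.3% of the summed level of the 39, and the median over all tested genes was 3.46 RPKM.

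The promoters of Scg2 and Chgb are shown because both of these abundant granin genes carry the palindrome TGACGTCA, the cAMP response element bound by CREB, just upstream of their RefSeq start. Both strands of the 250 bases before each start were searched in the RefSeq promoter table of GRCm38.p6, which matched 29 of the 39 genes. The whole element was found in 3 of the 29, Chgb, Scg2 and Ucn, or 10.3%, against 1.77% of 27025 genes with a promoter in the table. Its shorter core TGACG, which the whole element contains, was found in 14 of 29, or 48.3%, against 19.8% of those genes. A match is a description of letters and not a measured binding site. The element of Scg2 lies 68 to 61 bases upstream of its RefSeq start and that of Chgb 72 to 65 bases upstream, and both fall within an exon of the GENCODE annotation. Stretches of 30 bases around the matches are printed 5′ to 3′ on the strand of the gene, with the matched letters in capitals. They cover chr1:79440076-79440105 (minus strand) for Scg2, chr2:132781559-132781588 (plus) for Chgb, chr5:31138921-31138950 (minus) for Ucn, chr12:102554885-102554914 (plus) for Chga, chr7:114636405-114636434 (minus) for Calca and chr10:5639127-5639156 (plus) for Vip. The last 3 carry the core alone.
Scg2: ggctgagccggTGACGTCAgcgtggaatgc
Chgb: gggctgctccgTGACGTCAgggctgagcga
Ucn: atgttcttcgcTGACGTCAgtcggagctgt
Chga: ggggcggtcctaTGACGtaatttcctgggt
Calca: gaagcacagaggTGACGcaatctgtctggg
Vip: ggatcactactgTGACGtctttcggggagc

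No group stood wholly apart for any of the most abundant granin genes. The values of Scg2 are described with diet. Normalized counts, which are reads divided by a size factor for each library, are given as lowest, median and highest of a group. Pcsk1n had 23904, 27564 and 29778 in KO_HFD, 25562, 27902 and 32027 in KO_CD, 26043, 28011 and 30738 in WT_HFD, and 27369.6, 27624 and 29479.5 in WT_CD. Chgb had 8653, 10017 and 10650.3 in KO_HFD, 9664, 10261 and 10531 in KO_CD, 9363, 10071 and 11434 in WT_HFD, and 9680.1, 10224 and 11282 in WT_CD. Scg5 had 5924, 6345 and 6716 in KO_HFD, 6110.2, 6414 and 6811 in KO_CD, 5665, 6163 and 6958 in WT_HFD, and 6028, 6271 and 6606 in WT_CD. The 4 groups overlapped for each of these 3 genes. Vgf, the precursor of peptides linked to energy balance, had 9082, 9757 and 10943 in KO_HFD, 9419, 10656 and 11979 in KO_CD, 8955, 9802 and 11999 in WT_HFD, and 9267, 10222 and 11223 in WT_CD. Chga had 7706, 8565 and 9438 in KO_HFD, 7787, 9000.3 and 9764 in KO_CD, 7857, 8809.7 and 10458 in WT_HFD, and 7536, 8349.5 and 10372 in WT_CD. The groups overlapped here as well, with the highest Chga and Vgf values in WT_HFD libraries. The SD within groups on the log2 scale was 0.140 for Chga and 0.121 for Vgf, near the median of 0.122 over all tested genes.

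Below these 6, next in order came Scg3, a granin that carries others into vesicles, at 94.2 ± 4.01 RPKM, and Penk, the enkephalin precursor, at 49.4 ± 2.62 RPKM. They were followed by Gal, encoding galanin, at 47.8 ± 5.73 RPKM, Cbln1 at 37.5 ± 1.51 RPKM and Adcyap1, encoding PACAP, at 31.6 ± 2.59 RPKM. These 11 genes lay in the top 10% of all 19928 tested genes by level. Tac1 (substance P), Nts (neurotensin), Tac2 (neurokinin B), Cbln4, Cbln2, Nucb2 (the nesfatin precursor) and Cck (cholecystokinin) had mean levels from 20.1 down to 11.3 RPKM. Pnoc, the nociceptin precursor, and Npvf, the precursor of RFamide-related peptides, had 8.12 and 7.46 RPKM. The other 13 tested genes were below the median of all tested genes, from Calca at 2.86 RPKM to Adm at 0.563 RPKM, so that the highest tested level was 803 times the lowest. In the plot of levels by library the spread between mice widens toward the bottom.

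**Figure D1:**
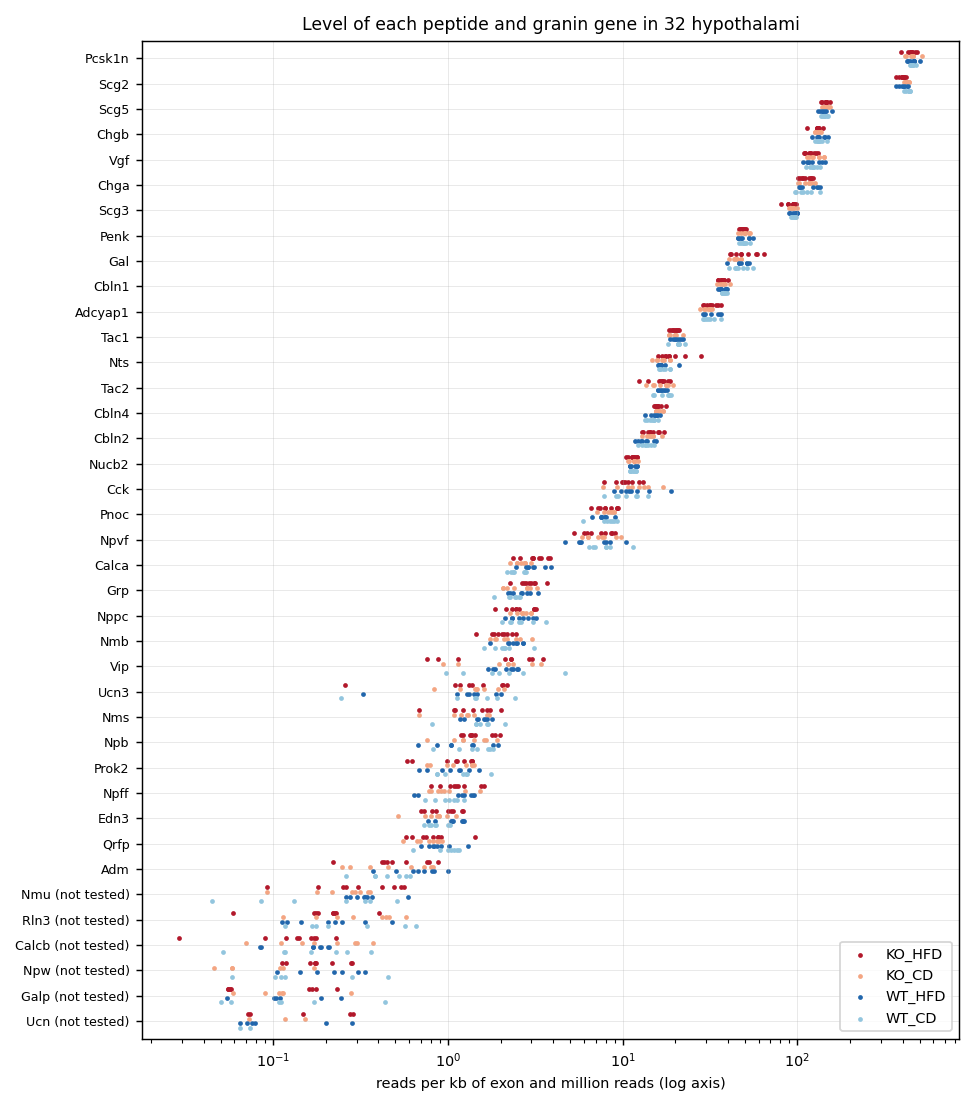
Level of each of the 39 genes in each of 32 libraries, in RPKM on a log axis, with 1 row per gene and 1 colour per group. Genes run from Pcsk1n at 452 RPKM at the top to Ucn at 0.0657 RPKM, and libraries at 0 are not drawn.

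Of the 39 genes, 33 reached a normalized count of 10 in at least 7 libraries and were tested. The 6 others did not pass this filter. Nmu, encoding neuromedin U, had 71 reads in KO_HFD, 49 in KO_CD, 67 in WT_HFD and 41 in WT_CD, summed over the libraries of a group. Rln3, encoding relaxin-3, had 33, 49, 34 and 40 reads in the same order of groups, and Calcb, encoding beta-CGRP, had 44, 59, 47 and 46. Npw, encoding neuropeptide W, had 30 reads in KO_HFD, 10 in KO_CD, 28 in WT_HFD and 20 in WT_CD. Galp, encoding galanin-like peptide, had 17, 14, 15 and 17 reads in that order, and Ucn, encoding urocortin, 12, 5, 11 and 2. Ucn was at 0 in 16 of 32 libraries, Galp in 6 and Npw in 4, where a count of 0 allows up to 3 reads per library. In a fit with no filter on low values, over 41338 genes, 0 of the 6 passed the threshold in any of the 7 comparisons. The smallest p belonged to Npw for diet in knockouts (unadjusted p = 0.00802, limma adjusted p = 0.730), where each KO_HFD library had 2.02 to 5.06 normalized counts, against 0 to 3.08 in KO_CD. For diet averaged over genotypes, Npw and Ucn had unadjusted p values of 0.0180 and 0.0401 (limma adjusted p = 0.530 and 0.644).

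The spread between mice of a group differed widely among the tested genes. The median SD within groups was 0.163 on the log2 scale over the 33 genes and 0.122 over all tested genes, which were not matched for level. Ucn3, encoding urocortin 3, a ligand of a corticotropin-releasing hormone receptor, varied most, at 0.817. Its normalized counts were 10.6, 56.1 and 90.3 (lowest, median and highest) in KO_HFD, 34.3, 60.7 and 87.6 in KO_CD, 13.5, 56.4 and 83.1 in WT_HFD, and 10.1, 60.2 and 100.1 in WT_CD. In 3 groups 1 library stood far below the others, and the groups overlapped throughout. Vip, encoding vasoactive intestinal peptide, had an SD of 0.644, with normalized counts of 72.9, 217.9 and 330.9 in KO_HFD, 89.1, 211.3 and 325.0 in KO_CD, 161, 212 and 240 in WT_HFD, and 93.2, 187 and 446 in WT_CD. The WT_HFD libraries lay closest together, and no group stood apart. At the other end, Scg2 had an SD of 0.056 and Nucb2 of 0.059.

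Of the 33 genes, 1 differed with diet. Averaged over both genotypes, Scg2 was lower on high-fat diet, with a change of -6.81% (log2 fold change -0.10, SE 0.018, limma adjusted p = 0.00249). It was the only one of the 33 past the adjusted threshold of 0.05, where 67 of all 19928 tested genes, or 0.336%, passed (0.151% lower and 0.186% higher). At an unadjusted p below 0.05 there were 4 of 33, against 11.1% of all tested genes, and limma-voom gave the same counts of 1 and 4 for these genes. The share of the 33 with a positive fold change was 11 of 33, against 49.4% of all tested genes, and their median log2 fold change was -0.013, against -0.00076 over all tested genes.

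Scg2 had normalized counts of 25856, 28228 and 29264 (lowest, median and highest) in KO_HFD, against 28583.5, 29694 and 30978 in KO_CD. It had 25818, 28262 and 30220.0 in WT_HFD, against 28712, 30651 and 31132 in WT_CD. All 9 KO_HFD libraries lay below the KO_CD median, 5 of them below every KO_CD library. All 8 WT_HFD libraries lay below the WT_CD median, 6 of them below every WT_CD library. The ranges of the 2 diets overlapped in both genotypes. The group means were 27977 ± 1107 in KO_HFD and 29878 ± 844 in KO_CD (SD, n = 9 and 8), and 28187 ± 1448 in WT_HFD and 30360.2 ± 887 in WT_CD (SD, n = 8 and 7). Within 1 genotype the log2 fold change was -0.095 in knockouts (SE 0.025, limma adjusted p = 0.220) and -0.11 in wild type (SE 0.027, limma adjusted p = 0.214), neither past the threshold. These 2 contrasts make up the average and are no separate evidence for it. Genotype by diet interaction for Scg2 was 0.013 (SE 0.037, limma adjusted p = 0.999). In bulk tissue, fewer cells that make a peptide and less RNA per cell cannot be told apart.

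Because age followed diet, the Scg2 difference was set beside age. With age in days as a covariate the log2 fold change was -0.097 (SE 0.024, limma adjusted p = 0.125), nearly the same size and no longer past the threshold. Among mice of 150 days the knockouts differed by -0.099 on the log2 scale, 8 KO_HFD against 3 KO_CD, with means of 27888 and 29857. Only 1 WT_CD mouse was 150 days old, and 1 KO_HFD and 1 WT_HFD mouse were 149 days old, so the following values rest on single mice and assume that these vary like the others. At 150 days 7 WT_HFD mice averaged 28186, against 30509.7 in the WT_CD mouse. At 149 days the KO_HFD mouse had 28692, against a mean of 29891 in 5 KO_CD mice, and the WT_HFD mouse had 28191.5, against a mean of 30335 in 6 WT_CD mice. Each of these comparisons within an age was lower on high-fat diet. Averaged over genotypes the log2 fold change was -0.082 at 149 days (SE 0.034, limma adjusted p = 0.648) and -0.11 at 150 days (SE 0.037, limma adjusted p = 0.998), neither past the threshold. Leaving out any 1 of the 32 libraries kept Scg2 past the threshold, with log2 fold changes from -0.11 to -0.093. The other granin genes had small values for diet averaged over genotypes. Vgf had a log2 fold change of -0.063 (SE 0.043), Scg5 of -0.016 (SE 0.021), Pcsk1n of -0.019 (SE 0.028), Scg3 of -0.013 (SE 0.021), Chgb of -0.014 (SE 0.025) and Chga of 0.018 (SE 0.050), none past the threshold.

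**Figure D2:**
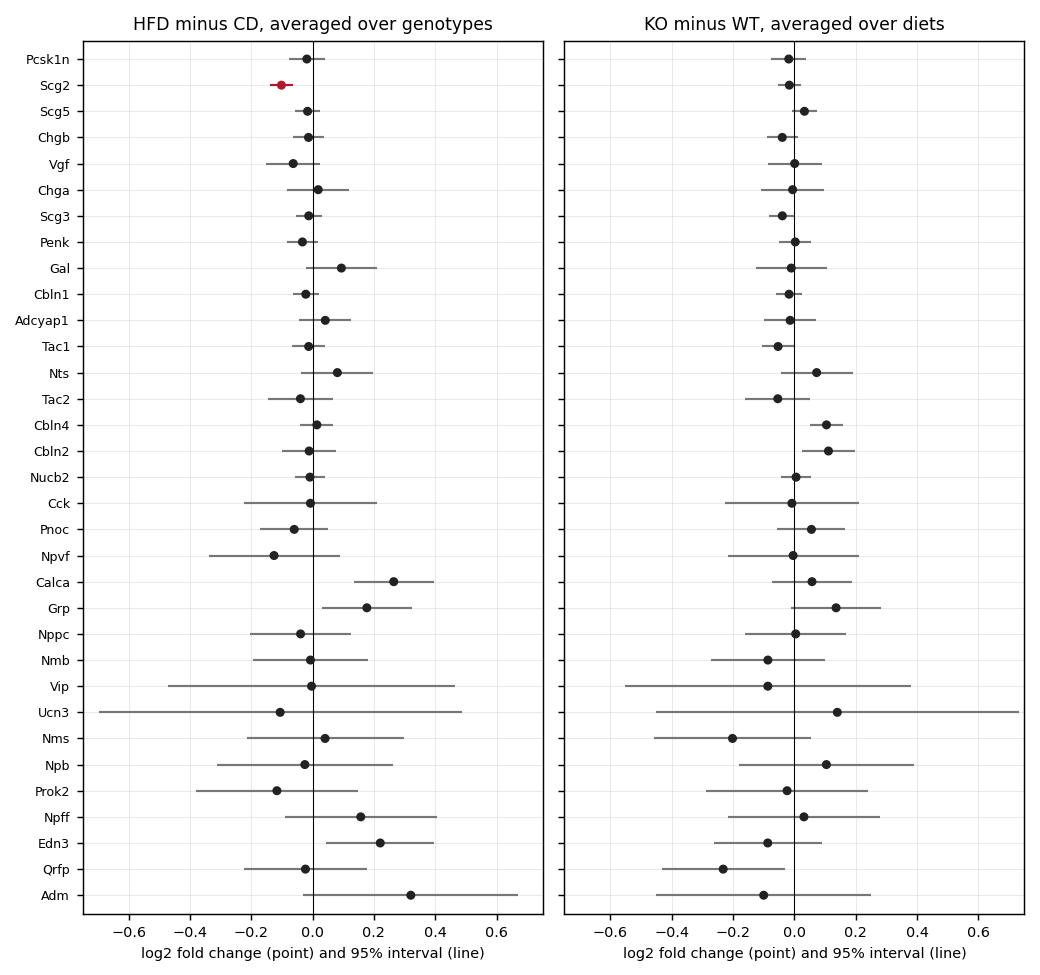
Log2 fold change (point) and 95% interval (line) of the 33 tested genes, for high-fat minus control diet averaged over genotypes (left) and knockout minus wild type averaged over diets (right), ordered by level. Scg2, in red, is the only gene past the adjusted threshold, at -0.10 for diet.

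Calca, the gene of calcitonin and alpha-CGRP, a vasodilator and sensory peptide, had the second smallest p for diet and missed the threshold narrowly. Its normalized counts were 111.0, 144 and 180.3 (lowest, median and highest) in KO_HFD, against 108, 126 and 142 in KO_CD. They were 114, 140.4 and 183 in WT_HFD, against 104, 112 and 131 in WT_CD. In both genotypes 7 high-fat libraries lay above every control-diet library of that genotype, and the ranges overlapped through 2 KO_HFD and 1 WT_HFD library. The means were 148 ± 22.7 in KO_HFD and 125 ± 10.6 in KO_CD, and 145 ± 21.9 in WT_HFD and 118 ± 11.6 in WT_CD (SD). Averaged over genotypes the log2 fold change was 0.26 (SE 0.065, limma adjusted p = 0.0530), or 20.1% higher. The adjusted p passed the threshold in 6 of 32 fits that left out 1 library, and ranged from 0.0198 to 0.118 over them. Libraries whose removal brought it past were KO_HFD replicates 1 and 4, KO_CD replicate 6, WT_HFD replicates 1 and 5 and WT_CD replicate 7.

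Age moved with the Calca value. With age as a covariate the log2 fold change for diet was 0.10 (limma adjusted p = 0.722). The single KO_HFD mouse of 149 days had 111.0 normalized counts and the single WT_HFD mouse of that age 114, each the lowest of its group, while KO_CD mice averaged 132 at 150 days and 120.3 at 149 days. Among mice of 150 days the difference in knockouts was 0.20 on the log2 scale, 8 KO_HFD against 3 KO_CD. With the single mice kept, the diet value averaged over genotypes was 0.19 at 150 days (SE 0.11, limma adjusted p = 0.998) and -0.061 at 149 days (SE 0.13, limma adjusted p = 0.969), the direction being the opposite in the younger mice.

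Edn3 and Grp were the other genes with the smallest p values for diet. Edn3, encoding the vasoactive peptide endothelin 3, had 81.0, 116 and 140.5 normalized counts (lowest, median and highest) in KO_HFD, against 60.4, 101 and 128 in KO_CD. In wild type it had 88.8, 122 and 139.9 in WT_HFD, against 84.5, 97.9 and 119 in WT_CD, where 6 of 8 WT_HFD libraries lay above every WT_CD library. The log2 fold change averaged over genotypes was 0.22 (SE 0.087, limma adjusted p = 0.318), and in wild type alone 0.27 (SE 0.13, limma adjusted p = 0.636). Grp, encoding gastrin-releasing peptide, had 94.2, 121 and 154 in KO_HFD, against 85.6, 108 and 133 in KO_CD, and 90.7, 109 and 135 in WT_HFD, against 75.8, 99.2 and 107 in WT_CD. The groups overlapped in both genotypes, and the averaged log2 fold change was 0.18 (SE 0.072, limma adjusted p = 0.345). Among knockouts of 150 days, 8 KO_HFD against 3 KO_CD, the difference on the log2 scale was 0.016 for Edn3 and 0.34 for Grp.

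Adm, encoding the vasodilator adrenomedullin, had the next smallest p in wild type after Scg2 and Calca. It had 17.0, 31.9 and 44.6 normalized counts (lowest, median and highest) in WT_HFD, against 11.9, 20.4 and 27.4 in WT_CD, with 6 of 8 WT_HFD libraries above every WT_CD library. In knockouts it had 10.03, 21.5 and 39.5 in KO_HFD, against 11.3, 24.4 and 37.4 in KO_CD, which overlapped fully. The log2 fold change was 0.58 in wild type (SE 0.25, limma adjusted p = 0.629) and 0.062 in knockouts (SE 0.24). Among knockouts of 150 days, 8 KO_HFD against 3 KO_CD, the difference was -0.17, the opposite direction. Its interaction value, -0.52 (SE 0.35, limma adjusted p = 0.999), missed the threshold.

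Blood and meningeal genes were examined for diet as well. Of 5 blood genes, 4 globin genes were higher on high-fat diet averaged over genotypes (2 by limma-voom), with a median log2 fold change of 0.59 over the list, and none was at 0 in any library. Of all tested genes, 0.186% were called higher by limma in this comparison. The summed blood level ranged from 14641 to 35458 normalized counts in KO_HFD, 9038 to 20283 in KO_CD, 14621 to 39562 in WT_HFD and 9586 to 15877 in WT_CD. All 8 meningeal genes had positive values, with a median of 0.45, and 0 passed the threshold by limma or limma-voom (1 and 0 at an unadjusted p below 0.05, against 11.1% of all tested genes by limma). Their summed level ranged from 1426 to 7071 in KO_HFD, 1195 to 5506 in KO_CD, 1236 to 6999 in WT_HFD and 1432 to 3827 in WT_CD. Between mice of 1 group, Edn3 varied with the mean of the meningeal list (r = 0.652) and so did Adm (r = 0.540), while for Calca r was -0.104. These r values concern the meningeal list and not the blood list. The part of blood or meningeal genes in the diet values of Calca, Edn3 and Adm was not tested.

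**Figure D3:**
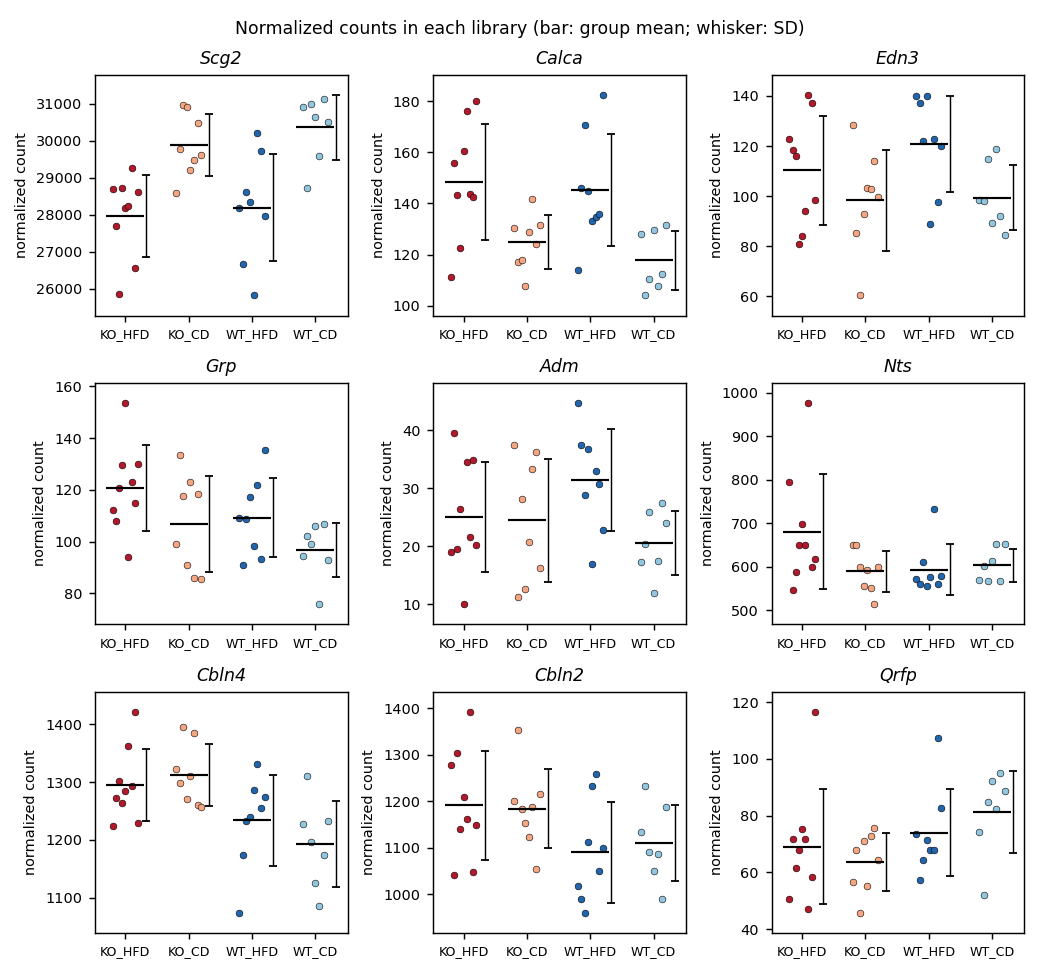
Normalized counts of 9 genes in each library, with the groups in the order KO_HFD, KO_CD, WT_HFD and WT_CD, the group mean as a bar and the SD as a whisker. Each panel has its own axis, which does not start at 0. All KO_HFD values of Scg2 lie below the KO_CD median, and all WT_HFD values lie below the WT_CD median.

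Within single genotypes, 0 of the 33 genes passed the threshold for diet by limma or limma-voom, against 0.0351% of all tested genes in knockouts (0.0201% lower and 0.0151% higher) and 0.0251% in wild type. At an unadjusted p below 0.05 there were 3 of 33 in knockouts, against 7.04% of all tested genes, and 4 of 33 in wild type, against 7.39%. Besides Scg2 and Calca, the smallest p values in knockouts belonged to Nts and Gal. Nts, encoding neurotensin, which reduces feeding when injected into the rodent brain, had 548, 649.8 and 976 normalized counts (lowest, median and highest) in KO_HFD, against 515.0, 597 and 651.0 in KO_CD. The 2 highest KO_HFD libraries stood well above the rest, and the log2 fold change was 0.19 (SE 0.079, limma adjusted p = 0.629). In wild type the values were 557, 575 and 732 in WT_HFD, against 567, 602 and 653.9 in WT_CD, with a log2 fold change of -0.028 (SE 0.084). Gal had 903.5, 1053 and 1408 in KO_HFD, against 899, 981 and 1056 in KO_CD, with 4 of 9 KO_HFD libraries above every KO_CD library and a log2 fold change of 0.16 (SE 0.077, limma adjusted p = 0.711). It had 870.5, 1081 and 1164 in WT_HFD, against 905, 1008 and 1226 in WT_CD, which overlapped. Among knockouts of 150 days the difference was 0.24 for Nts and 0.15 for Gal on the log2 scale.

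Loss of Gpr101 changed none of the 33 genes past the adjusted threshold. Averaged over diets, 0 of 33 were called by limma or limma-voom, against 0.00502% of all tested genes, a share that is Gpr101 alone. At an unadjusted p below 0.05 there were 3 of 33 by each tool, against 5.72% of all tested genes. The same background of 0.00502% held for genotype on each diet, where 2 of 33 were below an unadjusted p of 0.05 on control diet, against 4.12% of all tested genes, and 2 of 33 on high-fat diet, against 5.15%. Their median log2 fold change averaged over diets was -0.0084, against -0.0018 over all tested genes. The 95% interval of the genotype effect lay within 1.25-fold either way for 27 of the 33 genes, against 77.1% of all tested genes. It lay within 1.5-fold for 32 of the 33, against 93.6% of all tested genes. The exception was Ucn3, with an interval from -0.45 to 0.73 on the log2 scale.

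Cbln4 had the smallest p for genotype. It encodes cerebellin 4, a secreted protein of the C1q family that joins presynaptic neurexins to postsynaptic partners. Its normalized counts were 1224, 1284 and 1422 (lowest, median and highest) in KO_HFD, against 1074, 1248 and 1332 in WT_HFD, and 1257, 1304.5 and 1395 in KO_CD, against 1086, 1197 and 1311 in WT_CD. On control diet all 8 KO_CD libraries lay above the WT_CD median and 3 above every WT_CD library, and on high-fat diet 7 of 9 KO_HFD libraries lay above the WT_HFD median. The means were 1295 ± 62.9 in KO_HFD and 1234 ± 78.9 in WT_HFD, and 1312 ± 53.5 in KO_CD and 1193 ± 74.3 in WT_CD (SD). Averaged over diets the log2 fold change was 0.10 (SE 0.027, unadjusted p = 0.000316, limma adjusted p = 0.724), or 7.51% higher. The adjusted p ranged from 0.613 to 0.999 under 12 other settings and from 0.364 to 0.994 when 1 library was left out. Among mice of 149 days the difference on control diet was 0.15 on the log2 scale, 5 KO_CD against 6 WT_CD, and among mice of 150 days that on high-fat diet was 0.053, 8 KO_HFD against 7 WT_HFD.

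Cbln2, another cerebellin of the same family, had 1040.3, 1161 and 1393 normalized counts (lowest, median and highest) in KO_HFD, against 960.5, 1075 and 1259.6 in WT_HFD. It had 1055, 1186 and 1353 in KO_CD, against 991, 1090.4 and 1234 in WT_CD. The groups overlapped on both diets, and the averaged log2 fold change was 0.11 (SE 0.043, limma adjusted p = 0.848). Cbln1, the most abundant cerebellin gene, had an averaged value of -0.018 (SE 0.021).

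Thalamic and neuronal markers had mostly positive genotype values beside the cerebellins. Averaged over diets, 7 of 8 thalamic markers had positive values (median 0.062), as had 7 of 8 neuronal markers (median 0.025). Of these, 0 were called by limma or limma-voom. At an unadjusted p below 0.05 there were 1 and 0 by each, against 5.72% of all tested genes by limma. Of other regions, 4 of 5 habenular markers (median 0.028), 1 of 6 striatal markers (median -0.045) and 2 of 5 cortical markers (median -0.080) had positive values. Of the glial lists, all 6 oligodendrocyte markers (median 0.031), 0 of 6 astrocyte markers (median -0.039) and 1 of 6 microglial markers (median -0.045) had positive values. The thalamic median was 0.041 on high-fat diet and 0.17 on control diet, and the summed thalamic level on control diet ranged from 4833 to 8037 normalized counts in KO_CD and from 4638 to 6561 in WT_CD. On high-fat diet it ranged from 4814 to 6779 in KO_HFD and from 4792 to 6575.5 in WT_HFD. Cbln4 varied with both lists between mice of 1 group, with r = 0.687 for the thalamic and r = 0.719 for the neuronal list. None of the thalamic and neuronal markers was at 0 in any library, and their part in the Cbln4 value was not tested.

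Qrfp, encoding the RFamide peptide QRFP, had 47.2, 67.8 and 117 normalized counts (lowest, median and highest) in KO_HFD, against 57.2, 69.7 and 107 in WT_HFD. It had 45.8, 66.0 and 75.6 in KO_CD, against 52.0, 84.8 and 94.9 in WT_CD, with all 8 KO_CD libraries below the WT_CD median. The averaged log2 fold change was -0.23 (SE 0.10, limma adjusted p = 0.866), and on control diet -0.34 (SE 0.15). Within mice of 149 days the control-diet difference was -0.42, and within mice of 150 days the high-fat difference was -0.073. Tac1, the substance P precursor, had 1745, 1901 and 2005 in KO_HFD, against 1786, 1917 and 2115 in WT_HFD, and 1748, 1904 and 2108 in KO_CD, against 1748, 1971 and 2166.3 in WT_CD. Its groups overlapped, with an averaged log2 fold change of -0.053 (SE 0.027, limma adjusted p = 0.867).

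On high-fat diet Nts and Scg3 were among the genes with the smallest p for genotype. Nts had a log2 fold change of 0.18 in KO_HFD against WT_HFD (SE 0.079, limma adjusted p = 0.948), and 8 of 9 KO_HFD libraries lay above the WT_HFD median. Scg3 had 6116, 7297 and 7478 normalized counts (lowest, median and highest) in KO_HFD, against 6873, 7472 and 7632 in WT_HFD, and 6882, 7202 and 7676 in KO_CD, against 7064, 7355.5 and 7503 in WT_CD. Its lowest values were those of 3 KO_HFD libraries below every WT_HFD library, and the log2 fold change on high-fat diet was -0.055 (SE 0.029, limma adjusted p = 0.948).

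Immediate early genes, which neurons switch on within minutes of activity, had negative values beside those of the peptide genes. Averaged over diets all 12 had negative values, with a median of -0.51, and 0 passed the threshold by limma or limma-voom. By each tool 9 had an unadjusted p below 0.05, against 5.72% of all tested genes by limma. On high-fat diet the median of the 12 was -0.17, with 0 of 12 at an unadjusted p below 0.05 by each tool, against 5.15%. On control diet it was -0.84, with 9 of 12 by each tool, against 4.12%. Their summed level ranged from 6776 to 13904 normalized counts in KO_HFD, 4092 to 11558 in KO_CD, 7499 to 13623 in WT_HFD and 6654 to 17622 in WT_CD. Averaged over diets, all 6 tested arcuate markers (median -0.19) and all 6 suprachiasmatic markers (median -0.071) were also negative, with 0 called. Of these markers 3 and 2 had an unadjusted p below 0.05 by each tool, against the same 5.72% of all tested genes. Their part in the values of the peptide genes was not tested.

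The effect of diet did not differ detectably between genotypes for any of the 33 genes. In the interaction 0 of 33 passed the threshold by limma or limma-voom, against 0.0% of all tested genes, and 0 of 33 had an unadjusted p below 0.05 by either tool, against 3.39% of all tested genes. The smallest p belonged to Nts, with an interaction of 0.22 (SE 0.12, limma adjusted p = 0.999), followed by Nmb, Adm and Cck. Nmb, encoding neuromedin B, had 31.8, 45.6 and 53.9 normalized counts (lowest, median and highest) in KO_HFD, 38.7, 47.4 and 67.9 in KO_CD, 38.5, 53.2 and 59.5 in WT_HFD, and 35.6, 46.7 and 69.4 in WT_CD. Its interaction was -0.28 (SE 0.19), and part of its exons is shared on the same strand with Sec11a, so reads could have been split between them. Cck, encoding cholecystokinin, had 287, 381 and 471 in KO_HFD, 281, 434 and 619.8 in KO_CD, 327, 402 and 690.2 in WT_HFD, and 287, 385 and 512 in WT_CD. The groups overlapped, and its interaction was -0.32 (SE 0.21). The 95% interval of the interaction lay within 1.25-fold either way for 18 of 33 genes, against 59.0% of all tested genes, and within 1.5-fold for 25 of 33, against 74.7%.

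None of the remaining peptide genes had an unadjusted p below 0.05 for diet or genotype averaged over the other factor. Penk averaged 2215 ± 65.5 normalized counts in KO_HFD, 2309 ± 126 in KO_CD, 2255.5 ± 180.1 in WT_HFD and 2264 ± 99.6 in WT_CD (SD). Adcyap1 averaged 3398 ± 279.6 in KO_HFD, 3248 ± 178 in KO_CD, 3385 ± 343 in WT_HFD and 3334 ± 279 in WT_CD, and the means of Nucb2 lay between 745 and 755 in all 4. The genes Pnoc for the opioid-related nociceptin, the tachykinin gene Tac2, the RF-amide genes Npvf and Npff, and Nppc, encoding C-type natriuretic peptide, had averaged genotype values between -0.054 and 0.055 on the log2 scale. For diet these 5 lay between -0.13 and 0.16, none with an unadjusted p below 0.05. Nms had values of -0.20 (SE 0.13) for genotype and 0.041 (SE 0.13) for diet. Npb, encoding neuropeptide B, had values of 0.10 (SE 0.14) for genotype and -0.025 (SE 0.14) for diet.

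Genes that act with these peptides were examined as 3 lists. Of all tested genes, 0.336% passed the threshold for diet averaged over genotypes, and 11.1% had an unadjusted p below 0.05, by limma. For genotype averaged over diets these shares were 0.00502% and 5.72%. Of 45 receptor and receptor-partner genes, 44 were tested, and 0 passed the threshold for diet averaged over genotypes by limma or limma-voom, with 8 by each at an unadjusted p below 0.05. Their median was -0.010, and the smallest p values were those of Rxfp3, the receptor of relaxin-3, at -0.14 (SE 0.039, limma adjusted p = 0.117) and Nrxn2, a neurexin, at -0.063 (SE 0.018, limma adjusted p = 0.124). For genotype 0 passed by either tool, and 3 by limma and 4 by limma-voom had an unadjusted p below 0.05, the smallest being those of Ramp1, a partner of the CGRP receptor, at -0.073 (SE 0.025) and of the neurotensin receptor gene Ntsr2 at -0.053 (SE 0.020). Of 12 genes that cut or trim precursors, 0 passed for diet or genotype, with 3 and 0 at an unadjusted p below 0.05, by limma and by limma-voom. Cpe, encoding the carboxypeptidase that trims cut peptides, had -0.043 for diet (SE 0.017, limma adjusted p = 0.314). Of 12 dense core vesicle genes 0 passed for diet or genotype, with 2 and 1 at an unadjusted p below 0.05, by limma and by limma-voom. Ptprn2, encoding the vesicle protein phogrin, had -0.051 for diet (SE 0.017, limma adjusted p = 0.222), and Syt4, a vesicle synaptotagmin, had 0.048 for diet (SE 0.021) and 0.048 for genotype (SE 0.021). The medians for diet were 0.0044 for the processing list and -0.022 for the vesicle list.

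Pairs of genes were compared between mice of the same group for the suprachiasmatic peptides and for the granins. Correlations were taken over all 32 libraries on the log2 scale after the group means were removed, and the points of a pair share their libraries and dissections. Of 6 pairs among Vip, Grp, Nms and Prok2, genes of suprachiasmatic neurons, 5 passed an adjusted p of 0.05. Nms, encoding neuromedin S, varied with Vip (r = 0.760, permutation p = 1e-05, the smallest that 100000 permutations can give, rho = 0.637, permutation p = 0.00043, adjusted p = 3e-05). Without the 2 libraries farthest from the Vip median r was 0.658, and within mice of 149 and 150 days it was 0.755 and 0.767. Prok2, encoding prokineticin 2, an output signal of the clock, varied with Vip (r = 0.711, permutation p = 5e-05, rho = 0.620, permutation p = 0.0005, adjusted p = 0.0001) and with Nms (r = 0.730, permutation p = 1e-05, rho = 0.707, permutation p = 5e-05, adjusted p = 3e-05). Without 2 libraries these were 0.631 and 0.680, and within the 2 ages 0.826 and 0.682 for Vip and 0.773 and 0.753 for Nms.

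Grp had lower correlations with these genes. Its correlation with Nms was 0.540 (permutation p = 0.00241, rho = 0.554, permutation p = 0.00179, adjusted p = 0.00361), 0.448 without 2 libraries, and 0.763 and 0.440 within mice of 149 and 150 days. With Prok2 it was 0.433 (permutation p = 0.0182, rho = 0.391, permutation p = 0.0362, adjusted p = 0.0218) and with Vip 0.339 (permutation p = 0.0691, rho = 0.231, permutation p = 0.219, adjusted p = 0.0691). The relation with Prok2 rests on 2 libraries, since r was 0.304 without them (permutation p = 0.137).

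Vip and Prok2 also followed markers of the suprachiasmatic nucleus that are not among the 39 genes. Each tested gene was compared with the mean of 17 marker lists, 561 relations in all, of which 20 passed an adjusted p of 0.05. Vip had r = 0.772 with the suprachiasmatic list (permutation p = 1e-05, rho = 0.824, permutation p = 1e-05, adjusted p = 0.00187), 0.733 without 2 libraries, and 0.776 and 0.801 within the 2 ages. Prok2 had r = 0.770 (permutation p = 1e-05, rho = 0.746, permutation p = 1e-05, adjusted p = 0.00187), 0.745 without 2 libraries, and 0.664 and 0.827 within the 2 ages. Nms had r = 0.702 (permutation p = 8e-05, rho = 0.641, permutation p = 0.00035, adjusted p = 0.00701), 0.573 without 2 libraries, and 0.392 and 0.828 within the 2 ages, so that among mice of 149 days it did not hold (permutation p = 0.320, n = 13). No suprachiasmatic marker was at 0 in any library.

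Several other genes varied with the marker list of a region or of neurons. Not all of the 20 relations that passed are described, and those described are positive. Between mice of a group, Adcyap1 tended to be lower where the thalamic list was higher. Adcyap1 varied with the arcuate list (r = 0.743, permutation p = 1e-05, rho = 0.778, permutation p = 1e-05, adjusted p = 0.00187), at 0.755 without 2 libraries and 0.899 and 0.682 within the 2 ages. Cck varied with the thalamic list (r = 0.682, permutation p = 9e-05, rho = 0.616, permutation p = 0.00055, adjusted p = 0.00701), at 0.548 without 2 libraries and 0.886 and 0.686 within the 2 ages. Cbln4 had r = 0.687 with the thalamic list (permutation p = 9e-05, rho = 0.691, permutation p = 9e-05, adjusted p = 0.00701), 0.710 without 2 libraries and 0.724 and 0.773 within the 2 ages. With the neuronal list Cbln4 had r = 0.719 (permutation p = 4e-05, rho = 0.636, permutation p = 0.00027, adjusted p = 0.00561), 0.649 without 2 libraries and 0.582 and 0.711 within the 2 ages, where it did not hold at 149 days (permutation p = 0.0755). Pnoc varied with the cortical list (r = 0.626, permutation p = 0.00071, rho = 0.629, permutation p = 0.00032, adjusted p = 0.0249), at 0.552 without 2 libraries and 0.888 and 0.502 within the 2 ages. The summed cortical level was low, from 275 to 593 normalized counts over all libraries.

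Edn3 and Adm varied with the meningeal list. Edn3 had r = 0.652 with the meningeal list (permutation p = 0.00015, rho = 0.699, permutation p = 3e-05, adjusted p = 0.00935), 0.623 without 2 libraries, and 0.508 and 0.719 within mice of 149 and 150 days, where it did not hold at 149 days (permutation p = 0.234). Adm had r = 0.540 (permutation p = 0.00166, rho = 0.537, permutation p = 0.00203, adjusted p = 0.0466), 0.440 without 2 libraries, and 0.812 and 0.456 within the 2 ages, where it did not hold at 150 days (permutation p = 0.0548), and its rho missed the adjusted threshold. Chga varied with the pituitary list (r = 0.593, permutation p = 0.00049, rho = 0.527, permutation p = 0.0031, adjusted p = 0.0229), at 0.530 without 2 libraries and 0.708 and 0.553 within the 2 ages, and its rho missed the adjusted threshold. The pituitary genes Lhb and Pou1f1 were not tested, Lhb being at 0 in all 32 libraries.

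**Figure D4:**
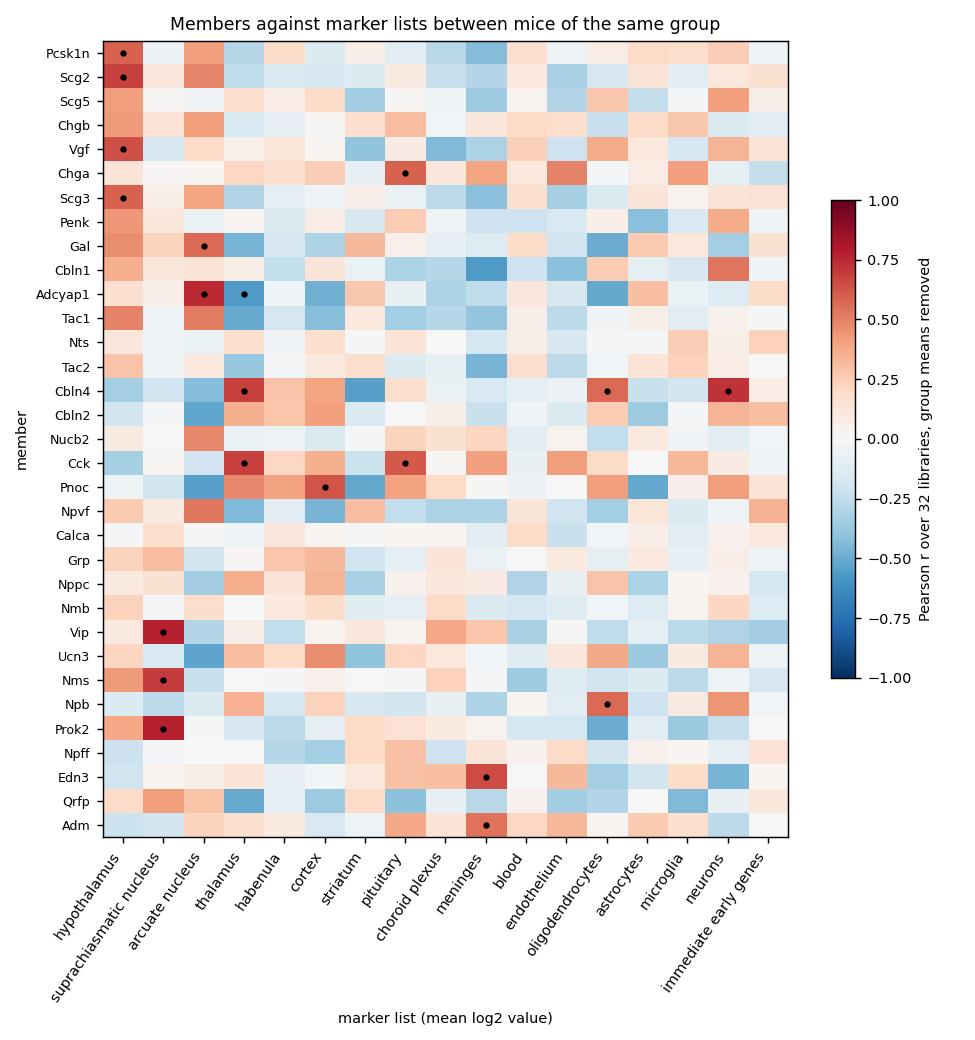
Pearson r between each of the 33 tested genes (rows, by level) and the mean log2 value of each of 17 marker lists (columns) over 32 libraries after removal of group means, in red for positive and blue for negative values. The 20 dots mark relations with an adjusted permutation p below 0.05, among them Vip, Nms and Prok2 with the suprachiasmatic list.

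Granin genes varied together between mice of a group. Of 21 pairs among the 7 granin genes, 12 passed an adjusted p of 0.05, all of them positive. Pairs of other tested genes were not examined. Neither this count nor that of the suprachiasmatic pairs therefore has a background share, and neither can be read as particular to these genes. The closest pair was Chgb with Chga (r = 0.726, permutation p = 3e-05, rho = 0.727, permutation p = 4e-05, adjusted p = 0.000525), at 0.656 without 2 libraries and 0.715 and 0.706 within mice of 149 and 150 days. Scg3 varied with Scg2 (r = 0.705, permutation p = 5e-05, rho = 0.702, permutation p = 5e-05, adjusted p = 0.000525), at 0.695 without 2 libraries and 0.614 and 0.735 within the 2 ages, where it did not hold at 149 days (permutation p = 0.0593). Scg2 and Vgf had r = 0.634 (permutation p = 0.00045, rho = 0.632, permutation p = 0.00047, adjusted p = 0.00189), 0.536 without 2 libraries, and 0.776 and 0.607 within the 2 ages. Scg2 and Chgb had r = 0.544 (permutation p = 0.00526, rho = 0.534, permutation p = 0.00309, adjusted p = 0.0110), which was 0.378 without 2 libraries (permutation p = 0.0705) and rests on them.

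Scg2, the gene that differed with diet, also varied with the hypothalamic marker list (r = 0.684, permutation p = 0.0001, rho = 0.598, permutation p = 0.00068, adjusted p = 0.00701), at 0.547 without 2 libraries and 0.754 and 0.655 within the 2 ages. For diet averaged over genotypes that list of 14 genes had a median log2 fold change of -0.014, with Hcrt, encoding orexin, lower at -0.36 (SE 0.080, limma adjusted p = 0.0362) and Avp, encoding vasopressin, higher at 0.34 (SE 0.078, limma adjusted p = 0.0477). By limma-voom 1 of the 14, Hcrt, passed. Over all tested genes 0.336% passed for diet by limma. The summed level of the list ranged from 26789 to 35036 normalized counts in KO_HFD, 28312 to 33449 in KO_CD, 28172 to 36975 in WT_HFD and 27842 to 34918 in WT_CD, with no marker at 0. Its part in the Scg2 value was not tested. The plots of single pairs show these relations library by library.

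**Figure D5:**
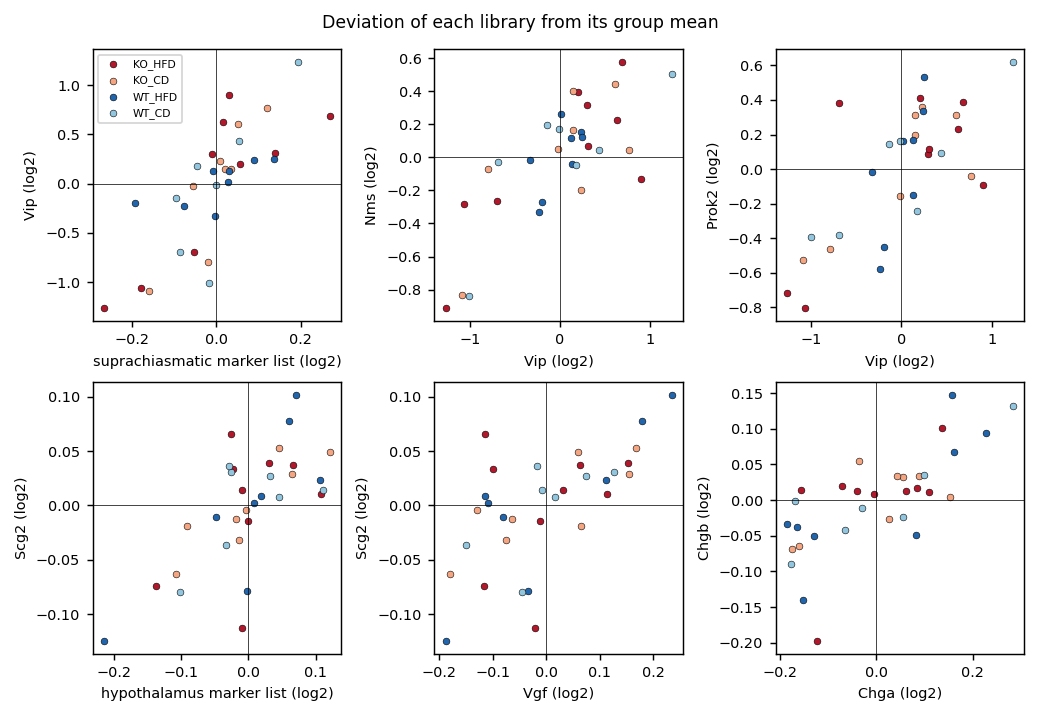
Deviation of each of 32 libraries from its group mean on the log2 scale, for Vip against the suprachiasmatic marker list, Nms and Prok2 against Vip, Scg2 against the hypothalamic marker list and against Vgf, and Chgb against Chga. Colours mark the group, and each relation was computed over all 32 libraries together. For Scg2 against Vgf some KO_HFD libraries lie off the rising band, such as replicate 7 at -0.11 for Vgf and 0.066 for Scg2.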

How the data were processed

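RNA from 32 hypothalami, extracted with the RNeasy Mini kit, was sequenced as stranded paired-end libraries, per the labels' protocols. The tools listed are cutadapt 2.10, FastQC, Trim Galore 0.6.2, DESeq2 1.28.1, R 4.0.2 and STAR 2.7.6a, and the build is GRCm38, per the submitters' processing notes. Which program counted the reads, with which annotation and strand setting, is not given there. The deposited values are log2 normalized counts, each being reads over a size factor of the library, with 0 listed as the log2 of 0.1. Undoing this returned whole reads for 100% of values (tolerance 1e-06).

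Normalized counts and exon lengths (GENCODE M21, GRCm38) were used for 55401 identifiers, of which 55141 had a symbol. Genes with a normalized count of at least 10 in at least 7 libraries were tested on log2(normalized count + 1), so fold changes of low genes are understated. All tests were two-sided, by limma 3.58.1 with trend and robust moderation (statmod 1.5.0, R 4.3.3), with all 4 groups in 1 fit and no covariate. The Benjamini-Hochberg adjustment ran over all 19928 genes tested in each of 7 comparisons, which share libraries, with a threshold of 0.05. Correlations used group-centred log2 values and 100000 permutations within groups, adjusted within each family. Counting limits cover counting error only.

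Named genes are those called in any comparison, the 4 of smallest p in each comparison, the 6 of highest level, and of other lists up to 2 of smallest p. The genes were selected by symbol and not by expression value, but the genes and lists were chosen with earlier results of these data known. The p values of genes, lists and pairs therefore do not rest on a choice made blind to the data. Alternatives were limma-voom on the recovered reads, other filters, pseudocounts and scalings, no robust moderation, a replicate block, age as a covariate, mice of 1 age, and leaving out each library. The fits were checked on simulated data.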

Additional observations from a re-analysis of the deposited data

Results flagged for a closer look

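In 132 groups of 1 gene (33 tested genes in 4 groups), 11 single libraries stood far from the rest of their group, from 8 libraries in all. Chance alone gives about 5% of groups, or 1 in 20. Values are normalized counts, each set beside the nearest other library of the group.

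Ucn3 was far below its group in 3 libraries. It had 10.6 in KO_HFD replicate 9 (nearest 45.5), 13.5 in WT_HFD replicate 8 (nearest 46.7) and 10.1 in WT_CD replicate 5 (nearest 46.9).

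WT_CD replicate 5 was also lowest for Pnoc at 359.99 (nearest 472), for Grp at 75.8 (nearest 92.8) and for Nms at 22.8 (nearest 40.3).

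Gal was at 870.5 in WT_HFD replicate 5 (nearest 1024) and Nmb at 38.5 in WT_HFD replicate 2 (nearest 48.6). Nts was at 732 in WT_HFD replicate 6, above the nearest value of 610.4. Qrfp was at 52.0 in WT_CD replicate 2 (nearest 74.2). Chgb was at 8653 in KO_HFD replicate 8 (nearest 9982).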

How the results depend on the processing

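For diet averaged over genotypes, the 33 genes held 1 call, which became 2 (Scg2 and Calca) with a normalized count of at least 50 or scaling by total reads, and 0 with age as a covariate. Leaving out 1 library gave 1 to 2, with 2 when Calca passed. Over all tested genes the count of 67 became 43 with no filter on low values, 12 with age as a covariate and 41 to 87 without 1 library, with 43 without KO_CD replicate 5, 44 without WT_CD replicate 1 and 41 without WT_CD replicate 2 or 6. For diet in knockouts the count of 7 became 4 with scaling by total reads, 2 in mice of 150 days and 3 to 10 without 1 library, with 4 without KO_CD replicate 3 or KO_HFD replicate 7 and 3 without KO_CD replicate 6 or KO_HFD replicate 8. For diet in wild type the count of 5 became 3 with the replicate block, 1 with age as a covariate and 1 to 7 without 1 library, with 3 without WT_CD replicate 1 and 1 without WT_CD replicate 2. For genotype on control diet the count of 1 became 2 with no filter. Fits within 1 age that keep groups of a single mouse were added after seeing the data, and assume that this mouse varies like the others. For diet averaged over genotypes they gave 0 calls over all genes and 0 among the 33 at each age. For diet in knockouts they gave 3 over all genes at 149 days, for diet in wild type 1 at 149 days and 0 at 150 days, and for genotype on high-fat diet 4 at 149 days. Under these fits 6 values of named genes reversed, none past the threshold. At 149 days Calca had -0.061 for diet averaged over genotypes, -0.11 in knockouts and -0.012 in wild type, Scg3 0.0071 for genotype on high-fat diet and Nmb 0.069 for the interaction. At 150 days Cbln2 had -0.045 for genotype on control diet. The cause was not tested. Outside the 4 smallest p of a comparison, Adm in knockouts was -0.17 at 150 days, against 0.062 in all mice, and Nts between genotypes on control diet 0.034 at 149 days, against -0.036. No other value of a gene with 1 of the 4 smallest p reversed in its comparison.

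Between libraries of different groups the median r was 0.0051 for equal and -0.00072 for different replicate numbers. Of these pairs, 8 of 45 and 40 of 338 were above 0.1. The column labels number the samples across groups, and neighbouring numbers were not compared, so other pairings of samples were not tested. The replicate block left the 33 genes with 1 call for diet averaged over genotypes. Of 37 correlations past the threshold, 22 missed it under at least 1 alternative, of which 15 missed it within mice of 149 days, 6 within mice of 150 days, 10 by rho and 4 without 2 libraries. The other correlations kept their side, and the cause of these changes was not tested. Depth limits the 6 genes that missed the filter.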
